A study of Mus musculus with 4 samples.

Results

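Fgd5, Esam, Angpt1, Adgrl4, Adgrg1, Pdzk1ip1, Ctnnal1 and Gcnt2 are 8 genes of signalling and cell adhesion that are used as, or found among, genes of blood stem cells. They were chosen by symbol, and all 8 were found among the 32285 genes counted. The cells were mouse bone marrow cells sorted for CD45.2 and Kit, taken 10 weeks post-transplantation and measured together with barcoded surface antibodies on a droplet platform that counts transcripts from their 3′ ends as unique molecular identifiers (UMIs). There were 4 libraries, 1 per group, labelled control, Mll3SI, Mll4SI and Mll3/4SI; the labels do not spell out SI, and the library names attached to them are wt, mll3KI, mll4KI and dKI. Nothing in the labels says how many donors or recipients each library pooled. With 1 library per group no difference between groups has a replicate check, so every interval below is a 95% interval for counting error only.

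Stem cells in the marrow are held in place and kept quiet by contacts with, and signals exchanged with, their surroundings. Angiopoietin 1, the product of Angpt1, is a secreted ligand of the receptor tyrosine kinase TIE2, which Tek encodes. Fgd5 and Esam are known mainly from blood vessels and are also used to mark blood stem cells, and adhesion G protein-coupled receptors such as the products of Adgrl4 and Adgrg1 couple contact with the matrix or other cells to signals inside the cell.

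The libraries held 140546094 to 177753607 gene UMIs. After quality filters and doublet removal 6743, 8023, 10186 and 6755 cells were kept, in the order the groups are named above, and 127 barcodes occurred in more than 1 library. Clusters were built without the 8 genes and named from marker lists. Clusters 16 and 18 met the rule for hematopoietic stem and multipotent progenitor (HSC/MPP)-like cells and held 542, 520, 420 and 197 cells; every list of 4 values below keeps this order. All 17 HSC/MPP markers were at 1 CPM (a gene's UMIs per 1000000 UMIs of the class) or more in control and Mll3SI, and 16 of 17 in Mll4SI and Mll3/4SI. Cluster 15, with 917 Mll3/4SI cells and 2 of the other libraries, met no rule and stayed unnamed; a state of the cells and a feature of that library cannot be told apart there. Granulocyte clusters 1, 2, 12 and 19 were mostly Mll4SI cells and clusters 8, 13, 17 and 22 mostly Mll3/4SI cells. Xist was near 0 in control and Mll3SI and reached 2655 and 2323 CPM in Mll4SI and Mll3/4SI HSC/MPP-like cells, so the sex of the cells differed between libraries along with the labelled genotype, and their parts cannot be told apart. Kmt2c and Kmt2d, the genes for MLL3 and MLL4, stood at 131 to 157 and 23.2 to 32.4 CPM in the 4 HSC/MPP-like sets; 3′ counts do not test what was altered in them.

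The genes lie apart on the GRCm38 mouse assembly and all are protein coding. Fgd5 spans chr6:91978878-92076004, Esam chr9:37528078-37538319, Angpt1 chr15:42424723-42676977 on the reverse strand and Adgrl4 chr3:151437887-151545086. Adgrg1 spans chr8:94974751-95014217, Pdzk1ip1 chr4:115088708-115093899, Ctnnal1 chr4:56810935-56865188 on the reverse strand and Gcnt2 chr13:40859754-40960892. Other annotated genes overlap Fgd5 (4930466I24Rik, Gm44095), Angpt1 (Gm17473) and Gcnt2 (5 on the opposite strand and Mir5124a), and reads of overlapping genes may be shared between them.

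RefSeq promoter windows of GRCm38.p6, from 250 bases before to 50 after a start, were found for 6 of the 8 genes, Esam and Angpt1 being the exceptions. The stretches before the start are shown for Fgd5 and Pdzk1ip1, which ran together with the antibodies on stem cells, for Adgrl4, which ran the other way with CD34, and for the first of 3 Gcnt2 starts, the gene that was lower in granulocyte-monocyte-like cells. All 4 lie on the forward strand, at chr6:91978715-91978964, chr4:115088458-115088707, chr3:151437632-151437881 and chr13:40859518-40859767. Capitals mark matches, on either strand, to TGACAG (a HOX/MEIS-type word), AGGAAG (an ETS core) and CAGCTG (an E-box).
Fgd5: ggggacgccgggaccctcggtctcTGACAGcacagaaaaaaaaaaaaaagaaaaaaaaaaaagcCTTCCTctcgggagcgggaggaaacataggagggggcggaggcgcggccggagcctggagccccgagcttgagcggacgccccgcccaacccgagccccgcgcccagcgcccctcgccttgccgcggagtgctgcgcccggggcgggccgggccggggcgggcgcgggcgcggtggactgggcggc
Pdzk1ip1: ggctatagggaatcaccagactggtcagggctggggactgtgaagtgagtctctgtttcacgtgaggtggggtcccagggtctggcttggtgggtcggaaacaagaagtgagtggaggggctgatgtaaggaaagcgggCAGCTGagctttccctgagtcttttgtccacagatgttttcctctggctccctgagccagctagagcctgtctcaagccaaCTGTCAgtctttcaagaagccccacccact
Adgrl4: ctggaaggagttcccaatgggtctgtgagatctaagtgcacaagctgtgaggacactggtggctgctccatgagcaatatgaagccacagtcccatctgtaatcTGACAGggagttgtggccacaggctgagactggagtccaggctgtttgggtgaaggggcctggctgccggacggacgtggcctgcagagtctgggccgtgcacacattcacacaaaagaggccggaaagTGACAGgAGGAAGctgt
Gcnt2: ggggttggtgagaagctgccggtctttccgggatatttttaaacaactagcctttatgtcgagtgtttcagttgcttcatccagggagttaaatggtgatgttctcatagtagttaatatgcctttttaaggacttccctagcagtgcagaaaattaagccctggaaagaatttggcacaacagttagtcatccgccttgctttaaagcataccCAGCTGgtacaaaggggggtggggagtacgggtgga
TGACAG occurred in the windows of Fgd5, Pdzk1ip1 and Adgrl4, with 2 copies in Adgrl4, against 19.2% of all 32851 promoter windows. AGGAAG occurred in those of Fgd5 and Adgrl4 (35.4% of all windows), where the Adgrl4 copy follows a TGACAG after 1 base. CAGCTG occurred in those of Pdzk1ip1 and Gcnt2 (16.3% of all windows). The Fgd5 stretch had 71.6% G and C and 31 CpG pairs, against 45.6% and 5 for the Gcnt2 stretch. No window held AGATAA (11.2% of all), TGTGGT (16.8%), CCGGAAG (8.86%) or TATAAA (13.6%), and GGGCGG (35.7%), not capitalised, was in those of Fgd5, Ctnnal1 and the start 3 of Gcnt2. These are descriptions of letters; binding was not measured.

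Angpt1, the ligand, was a gene of several early cell classes rather than of stem cells alone. In HSC/MPP-like cells it stood at 1404, 1520, 1709 and 1408 CPM, in erythroid-like cells at 1211, 1445, 1522 and 1300, and in basophil/mast-like cells at 1504, 1272, 1714 and 1325. The 3 classes overlapped across libraries, and granulocyte-monocyte-like cells were far below them at 41.5, 50.05, 45.3 and 90.9 CPM. B-lymphoid-like cells had 15.6, 66.5, 10.2 and 7.33 CPM.

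The 2 adhesion receptors differed in breadth. Adgrl4, an orphan receptor best known from vessel sprouting, stood at 676, 725, 725 and 631 CPM in HSC/MPP-like cells. It was lower in every other named class, with 63.4, 83.0, 77.1 and 58.3 CPM in erythroid-like and 68.2, 75.8, 63.8 and 80.5 CPM in granulocyte-monocyte-like cells, so the stem class stood above both by log2 ratios of 2.96 to 3.48. Adgrg1, which encodes GPR56, stood at 381, 350, 425 and 344 CPM in HSC/MPP-like cells. Unlike Adgrl4 it stayed high in basophil/mast-like cells (275, 253, 340 and 370 CPM), erythroid-like cells (190, 226, 240 and 225) and B-lymphoid-like cells (144, 170, 179 and 185). In B-lymphoid-like cells Adgrg1 exceeded the granulocyte-monocyte level of 32.6, 29.0, 30.4 and 44.1 CPM in all 4 libraries, while Adgrl4 was below it in all 4.

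Esam, an immunoglobulin-family adhesion molecule of endothelial junctions, was shared by HSC/MPP-like and erythroid-like cells. It stood at 9.41, 20.03, 9.19 and 6.34 CPM in the former and 7.62, 22.8, 13.5 and 11.7 CPM in the latter. Only 5 to 10 Esam UMIs were counted in the granulocyte-monocyte-like cells of each library, and at most 1 in basophil/mast-like cells. The erythroid-like cluster was marked by 10 erythroid genes, but 7 of the HSC/MPP list were raised in it too, and Pf4 was among its leading genes. With Leiden resolution 2 the erythroid-like cluster held 275, 226, 126 and 81 cells. An unnamed cluster led by Pf4, with 6 markers each of the HSC/MPP and megakaryocyte lists raised, then held 105, 156, 85 and 43 cells. The part of such cells in the erythroid-like Esam level was not tested.

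The members that act inside the cell or span its membrane fell into 2 kinds. Fgd5, an exchange factor that activates CDC42, was the most restricted, with 2.76, 6.09, 1.66 and 2.84 CPM in HSC/MPP-like cells from 32, 52, 15 and 13 UMIs. Of all its UMIs 78.0%, 85.2% and 88.2% fell in the HSC/MPP-like class in the first 3 libraries, and 32.5% in Mll3/4SI, where cluster 15 held 47.5%. Pdzk1ip1, a small membrane protein that binds PDZ domains, and Ctnnal1, a relative of alpha-catenin, were instead higher in erythroid-like than in HSC/MPP-like cells. Other classes matched that level in places, basophil/mast-like cells for Pdzk1ip1 (21.4, 9.71, 30.7 and 7.09 CPM) and B-lymphoid-like cells for Ctnnal1 (9.53, 11.2, 17.6 and 16.1). Pdzk1ip1 had 22.1, 28.6, 26.7 and 31.9 CPM in erythroid-like cells against 6.47, 11.4, 11.5 and 6.78 in HSC/MPP-like cells, and Ctnnal1 had 16.2, 21.1, 16.6 and 15.04 against 5.87, 5.86, 6.86 and 8.53. In every library the erythroid-like interval of both genes lay above the HSC/MPP-like one, except that the 2 intervals of Ctnnal1 overlapped in Mll3/4SI. Gcnt2, an enzyme that branches poly-N-acetyllactosamine chains on surface glycans, followed the order HSC/MPP-like (323, 297, 294 and 271 CPM), erythroid-like (128, 122, 89.1 and 99.1), basophil/mast-like (102, 88.8, 64.0 and 39.0) and granulocyte-monocyte-like (34.8, 21.6, 15.5 and 18.6).

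**Figure D1:**
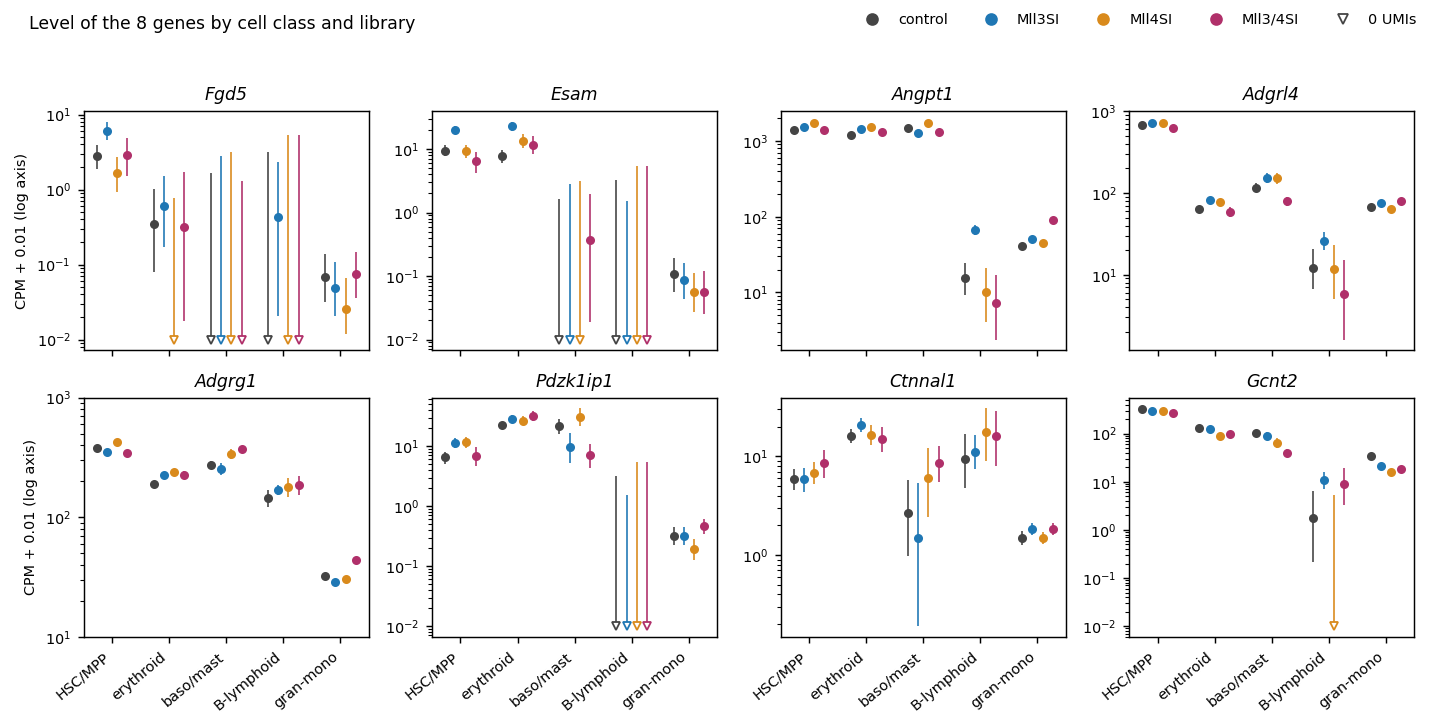
CPM plus 0.01 on a log axis for each gene (panels) in 5 cell classes (horizontal axis); points are libraries, bars 95% Poisson intervals, open triangles 0 UMIs. Fgd5 is near 0 outside HSC/MPP-like cells, Pdzk1ip1 and Ctnnal1 are higher in erythroid-like than in HSC/MPP-like cells, and Angpt1 is about level across HSC/MPP-like, erythroid-like and basophil/mast-like cells.

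Set against granulocyte-monocyte-like cells of the same library, all 8 genes were higher in HSC/MPP-like cells by a log2 ratio of at least 1 in all 4 libraries (ratios are of CPM + 1, which shrinks those of rare genes). Of all genes tested, 18.5%, 17.8%, 25.4% and 21.3% passed the same threshold. The median of the 8 was 3.21, 3.39, 3.44 and 2.87, and the median of all genes 0.40, 0.38, 0.50 and 0.41. Against erythroid-like cells Fgd5, Adgrl4 and Gcnt2, 3 of the 8, reached 1 in each library (9.7%, 8.68%, 6.85% and 9.96% of all genes passed). Pdzk1ip1 was at or below -1 in all 4 and Ctnnal1 in all but Mll3/4SI, where 4.17%, 3.89%, 4.08% and 5.09% of all genes were. Because clusters group cells by genes that vary together, these class differences describe the genes and are no test.

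Within the HSC/MPP-like class the genes again behaved unlike one another. Cluster 16 held 293, 295, 185 and 115 cells and cluster 18 the rest; Mki67, a proliferation marker, was 68.2 to 105 CPM in cluster 16 against 436 to 483 in cluster 18. Esam was higher in cluster 16 by 1.32, 1.41, 1.43 and 1.29 on the log2 scale and Pdzk1ip1 by 1.87, 1.13, 1.37 and 1.41. Adgrg1 was level, at 0.01, 0.11, 0.10 and 0.01. The number of the 8 genes higher by at least 1 was 3, 4, 5 and 2, where 6.39%, 7.57%, 6.42% and 7.65% of all genes were. Cluster 16 made up a smaller part of the class in Mll4SI than in the other libraries.

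Cells were also counted by how many of the 8 genes they showed, after each cell was thinned to 3000 UMIs so that depths matched; 1 to 3 shallower HSC/MPP-like cells per library were left out. At least 2 genes were seen in 91.1%, 89.6%, 92.3% and 86.2% of HSC/MPP-like cells, against 6.26%, 6.37%, 4.86% and 9.27% of granulocyte-monocyte-like cells. Median depths of these classes were 20470.5 and 16987 UMIs in control, and unthinned shares were 99.1% and 26.9% there. At least 3 genes were then seen in 70.4%, 72.8%, 73.6% and 58.7% of HSC/MPP-like cells. The Mll3/4SI share was 0.83 times that of control (0.72 to 0.95), 0.92 times when cells were thinned to 6000 UMIs, and 1.01 times unthinned.

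The next question was whether the level of each gene in HSC/MPP-like cells differed between libraries. Esam and Fgd5, both rare, shifted most, and did so in Mll3SI. Esam stood at 20.03 CPM in Mll3SI where control had 9.41. This is a difference of 1.01 (0.74 to 1.45) on the log2 scale, and Esam was the only one of the 8 genes at or above 1 in any of the 3 comparisons (0.481%, 1.87% and 1.22% of all genes were). None was at or below -1 (0.536%, 1.6% and 1.12% of all genes). The level intervals, 17.1 to 23.3 and 7.73 to 11.4 CPM, did not overlap, and those of Mll4SI (7.32 to 11.4) and Mll3/4SI (4.25 to 9.11) overlapped that of control. Fgd5 was higher by 0.91 (0.48 to 1.82) and Pdzk1ip1 by 0.73 (0.36 to 1.27). Angpt1 (0.11) and Adgrl4 (0.10) were slightly higher, Adgrg1 and Gcnt2 (-0.12 each) slightly lower, and the interval of Ctnnal1 was -0.56 to 0.54.

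Each library carried 2 hashtag antibodies whose meaning the labels do not give, and each divides the library into subsets. A hashtag number in 1 library thus has no known match in another. Esam was 17.9 and 24.5 CPM in the Mll3SI subsets and 9.53 and 8.88 in the control subsets, so these did not overlap. Fgd5 was 4.94 and 7.57 CPM in Mll3SI against 4.77 and 1.2 in control, so the nearest subsets were almost level. Pdzk1ip1 was 11.3 and 11.7 CPM against 9.53 and 4.27. The Esam shift was present in cluster 16 (31.6 against 15.2 CPM) and in cluster 18 (11.3 against 5.50), and in erythroid-like cells (22.8 against 7.62 CPM). In those erythroid-like cells the Mll3SI subsets had 22.6 and 24.1 CPM and the control subsets 10.8 and 3.39. The Pf4-led cluster seen with Leiden resolution 2 held 156 Mll3SI and 105 control cells, and its part in this shift was not tested.

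Megakaryocyte markers moved with Esam in part: 8 markers summed to 13.3 CPM in control and 23.9 in Mll3SI HSC/MPP-like cells, and to 17.96 and 45.3 in cluster 16, with Gp6 at 0 in both. In Mll4SI and Mll3/4SI they summed to 21.4 and 21.6 CPM in HSC/MPP-like cells, where Esam was not higher than in control. In cluster 16 of these libraries the sums were 17.7 and 24.5 CPM. Their part in the result was not tested. Endothelial cells also express Esam and Fgd5. The 7 endothelial markers summed to 21.7, 22.8, 18.7 and 18.4 CPM, mostly from Emcn, with Cdh5 at 0 in control, Mll3SI and Mll4SI and Ptprb at 0 in all 4. The 6 stromal markers summed to 25.8, 18.3, 33.8 and 29.7 CPM, with 1 of them at 1 CPM or more in each library and Cxcl12 and Col3a1 at 0 in all 4. The part of these cells in the result was not tested.

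In Mll4SI the abundant ligand and Pdzk1ip1 were higher. Pdzk1ip1 stood at 11.5 CPM against 6.47, higher by 0.74 (0.39 to 1.28), and was 11.1 and 12.7 in the hashtag subsets against 9.53 and 4.27 in those of control. Paired by hashtag number, which has no basis in the labels, the ratio was 0.19 in Hashtag1 cells and 1.38 in Hashtag2 cells. The level intervals overlapped in the former. Angpt1 was higher by 0.28 (0.25 to 0.32) and Adgrg1 by 0.16, while Gcnt2 was lower by 0.14 and Fgd5, at 15 UMIs, gave -0.50 (-1.72 to 0.19). Within cluster 16 the Angpt1 level was 2478 CPM against 1846. Gcnt2 did not keep its direction there: it was 458 against 388 CPM in cluster 16 and 225 against 278 in cluster 18. Markers of other lineages moved in the same cells: from control to Mll4SI the 14 granulocyte markers summed to 5197 and 14924 CPM, the 8 basophil/mast markers to 287 and 668, and the 7 lymphoid-primed markers to 512 and 286. In cluster 16 the granulocyte sums were 3830 and 7081 CPM and the basophil/mast sums 124 and 307. Basophil/mast-like cells of Mll4SI themselves had 1714 CPM of Angpt1 and 30.7 of Pdzk1ip1, and the part of such cells or their RNA in the result was not tested.

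Mll3/4SI HSC/MPP-like cells had the ligand near the control level as a whole, but not in each subset, and slightly less of Gcnt2 and both receptors. Gcnt2 was lower by 0.25 (-0.35 to -0.16), Adgrg1 by 0.15 and Adgrl4 by 0.10, and Angpt1 was at 0.00 (-0.04 to 0.05). That value joins unlike subsets: Angpt1 was 1278 CPM in Hashtag1 and 1674 in Hashtag2 cells of Mll3/4SI, and 1529 and 1292 in those of control. Paired by hashtag number these gave -0.26 and 0.37, with intervals that did not overlap in either. That pairing has no basis in the labels. Paired the other way, 1278 and 1292 CPM had intervals that overlapped, and 1674 stood above 1529 with intervals that did not. Cluster 16 made up 51.9% of the Mll3/4SI Hashtag1 cells and 69.7% of the Hashtag2 cells, against 53.7% and 54.6% in control. Esam gave -0.50 (-1.21 to 0.03) from 29 UMIs, and Ctnnal1 0.47 (-0.07 to 1.13). Against Mll3SI, Esam was lower in Mll3/4SI by 1.52 (-2.28 to -1.09). Angpt1 was 0.38 and 0.46, and the directions of Adgrl4 and Adgrg1 turned, when the class was drawn by either of 2 other rules, given in the closing section.

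Of the 8 genes in Mll3SI, 5 had an interval above 0 and 2 one below. Mll4SI had 4 and 1, and Mll3/4SI 0 and 3. Over all 12695 genes tested these shares were 10.9% and 8.11%, 14.7% and 15.6%, and 7.96% and 14.4%. The median log2 ratio of the 8 was 0.11, 0.13 and -0.05, against 0.01, -0.00 and -0.05 for all genes. All 8 passed the minimum mean of 1 CPM in this class. The 3 comparisons share the control library.

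**Figure D2:**
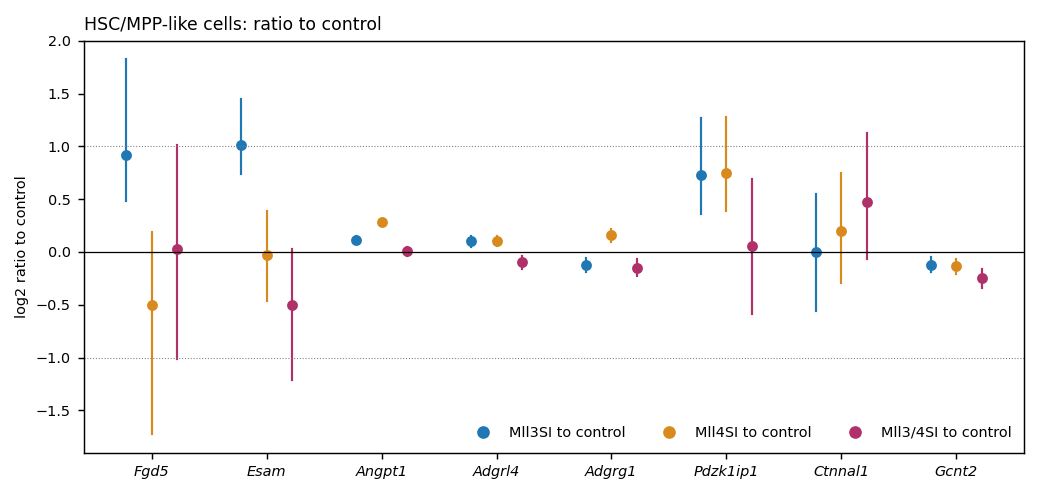
Log2 ratio to control in HSC/MPP-like cells for each gene (points) with 95% exact intervals for counting error (bars), coloured by library; dotted lines are at -1 and 1. Esam in Mll3SI is the only point above 1, and the bars of Fgd5 are the widest.

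The surface antibodies were not used to cluster the cells, but the genes were chosen with earlier results of these data known. In each library HSC/MPP-like cells were ranked by each antibody's centred log ratio. This is its log count minus the mean log count over the cell's antibodies other than hashtags. The rank thus also depends on the cell's other antibodies. The 25% ranked highest (135, 130, 105 and 49 cells) were compared with the 25% ranked lowest, here called high and low cells. Sca1, CD150 and CD48 are the standard antibodies for stem cells; long-term stem cells are high for the first and second and low for CD48. With Sca1, 7, 7, 8 and 7 of the 8 genes were higher in high cells with an interval above 0 (21.2%, 17.6%, 14% and 11.9% of all genes). Fgd5 gave log2 ratios of 2.82 to 3.14 over the 4 libraries, Esam 2.21 to 3.04, Gcnt2 1.36 to 1.99, Adgrl4 1.08 to 1.25 and Angpt1 0.95 to 1.41. Those of Fgd5 rested on 22, 35, 10 and 6 UMIs in high and 1, 4, 0 and 0 in low cells. Their size, and so their narrow range, depends much on the added 1 CPM. Adgrg1 gave only 0.04 to 0.18.

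CD150 separated the 2 adhesion receptors and the ligand. Pdzk1ip1 gave 2.38 to 3.65 and Esam 2.46 to 4.37 in favour of CD150-high cells, and Angpt1 0.88 to 1.33, each above 0 in all 4 libraries. The highest values of Pdzk1ip1 and Esam were those of Mll3/4SI, from 22 against 1 and 20 against 0 UMIs. Adgrl4 gave -0.37 to 0.31, above 0 in 2 libraries and below in 2. The number of genes above 0 was 7, 7, 7 and 8 (10.2%, 11.3%, 12.1% and 8.44% of all genes). CD150 counts were low, with medians of 16 to 75.5 UMIs in the high cells and 0 or 1 in the low ones.

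CD48, which rises as stem cells turn into progenitors, ran the other way for the set. The number with an interval below 0 in CD48-high cells was 8, 8, 7 and 8 (20%, 19%, 18.1% and 11.9% of all genes). Fgd5 gave -4.01 to -3.0, Pdzk1ip1 -4.11 to -1.89 and Esam -3.47 to -1.58. For Fgd5 the high cells held 1, 1, 0 and 0 UMIs and the low cells 26, 32, 13 and 11. Adgrg1 again moved least, at -0.56 to -0.01.

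Adgrl4 stood apart with CD34, an antigen of progenitors and short-term stem cells in the mouse. It was higher in CD34-high cells by 0.52 to 0.88, above 0 in all 4 libraries, while Angpt1 gave -0.92 to -0.19 and Pdzk1ip1 -2.48 to -1.25, below 0 in all 4. In CD34-high cells 5, 4, 2 and 6 of the 8 genes had an interval below 0 (9.33%, 10.4%, 7.02% and 6.36% of all genes). Adgrl4 was lower in CD41-high cells by 0.64 to 1.16 in the 4 libraries, where Adgrg1 gave 0.12 to 0.58. CD41 is carried by megakaryocyte-biased cells.

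High and low cells differed in more than the antibody. In control 75.6% of Sca1-high and 24.4% of Sca1-low cells were of cluster 16, and median depths were 14797 and 26653 UMIs. Within cluster 16 alone, a comparison added after seeing the data, Sca1-high cells still gave 1.88 to 4.81 for Esam, 0.75 to 1.5 for Gcnt2 and 0.29 to 0.90 for Angpt1, above 0 in all 4 libraries. Fgd5 gave 1.90 to 3.18 with an interval above 0 in 2 libraries, and Pdzk1ip1 -0.20 to 2.74 with 3 above 0, the lowest in Mll4SI. Adgrl4 was above 0 in 3, Ctnnal1 in 1, and Adgrg1 gave -0.28 to 0.07. Adgrl4 stayed above 0 with CD34 (0.31 to 0.54, 4 of 4 libraries), and Pdzk1ip1 with CD150 (1.82 to 3.54, 4 of 4). Other results did not all hold there. With CD150, Ctnnal1 was above 0 in 1 library against 4 in the whole class, and Adgrl4 was below 0 in 3. With CD48, Esam, Angpt1, Pdzk1ip1 and Gcnt2 were below 0 in all 4 libraries. Ctnnal1 was below 0 in 0 with CD48, against 4 in the whole class. Adgrg1 was below 0 in 3 and above 0 in Mll4SI (0.30, 0.06 to 0.54). The part of depth was not tested.

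**Figure D3:**
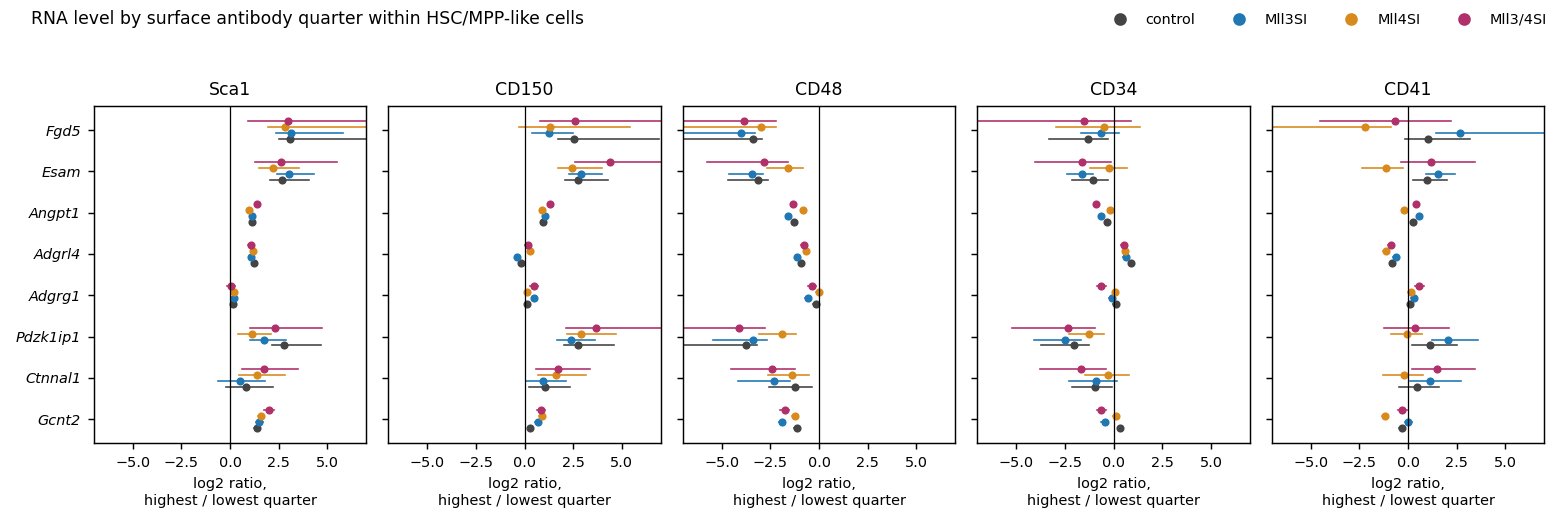
Log2 ratio of antibody-high to antibody-low HSC/MPP-like cells (25% each) (horizontal axis) for 5 antibodies (panels) and the 8 genes (rows); points are libraries and bars 95% intervals, drawn to at most -7 and 7. Fgd5, Esam and Pdzk1ip1 lie farthest from 0 with CD150 and CD48, Adgrg1 stays near 0, and Adgrl4 is to the right with CD34 and to the left with CD41.

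Cluster 15, made up almost wholly of Mll3/4SI cells, held most of some members' UMIs in that library: 72.6% of Esam, 63.9% of Angpt1, 56.2% of Pdzk1ip1 and 54.5% of Adgrg1. Its leading genes included Cpa3 and Fcer1a of mast cells and Meis1 of stem cells. Angpt1 stood at 1857 CPM, Adgrl4 at 496, Adgrg1 at 425, Gcnt2 at 131, Pdzk1ip1 at 11.4, Esam at 8.50, Ctnnal1 at 7.42 and Fgd5 at 0.82. Against HSC/MPP-like cells of the same library none of the 8 was higher by a log2 ratio of 1 (3.19% of all genes), and Fgd5 (-1.07) and Gcnt2 (-1.05) were lower by that much (4.45%). Mecom, a stem cell transcription factor, was lower by 3.5 and Hlf by 1.88. The other 6 genes lay between -0.35 (Adgrl4) and 0.67 (Pdzk1ip1).

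Against basophil/mast-like cells of Mll3/4SI, cluster 15 was higher by at least 1 for Esam (2.81), Adgrl4 (2.64) and Gcnt2 (1.72), 3 of the 8 where 4.94% of all genes were. Against granulocyte-monocyte-like cells 7 of the 8 were, all but Fgd5 (16.2% of all genes). Megakaryocyte markers summed to 332 CPM in cluster 15, mostly Pf4, and basophil/mast markers to 1528. With cells of cluster 15 counted as HSC/MPP-like, Adgrg1 in Mll3/4SI turned from -0.15 to 0.11 against control.

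**Figure D4:**
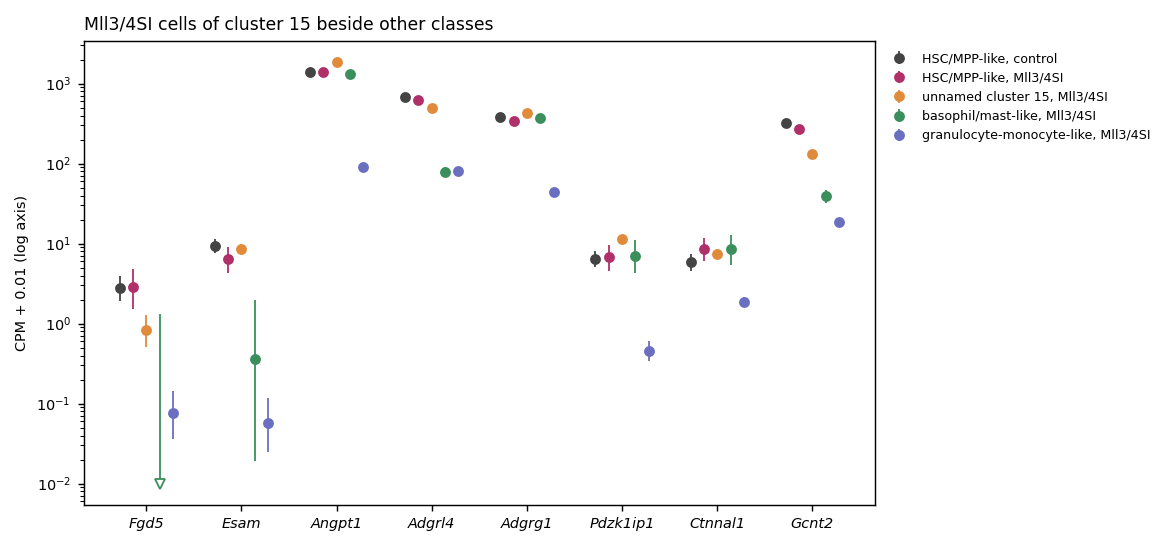
CPM plus 0.01 on a log axis for each gene (horizontal axis) in HSC/MPP-like cells of control and Mll3/4SI and in 3 other sets of Mll3/4SI cells (colours); bars are 95% Poisson intervals and the open triangle is 0 UMIs. Cluster 15 lies beside the HSC/MPP-like points for all genes but Fgd5 and Gcnt2, and above basophil/mast-like cells for Esam, Adgrl4 and Gcnt2.

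In granulocyte-monocyte-like cells 5 of the 8 genes passed the minimum of 1 CPM: Angpt1, Adgrl4, Adgrg1, Ctnnal1 and Gcnt2. Gcnt2 was lower than in control in every other library, 34.8 against 21.6, 15.5 and 18.6 CPM, which gave -0.66, -1.11 and -0.87. All genes together had medians of 0.00, -0.10 and -0.07. It was the only member at or below -1 (0.262%, 0.904% and 0.777% of all genes were in the 3 comparisons). The hashtag subsets were 35.2 and 34.2 CPM in control and 15.4 to 24.6 in the other libraries, so they did not overlap. Because different clusters held most cells of this class in Mll4SI and Mll3/4SI, the genes were also compared within the 10 clusters with at least 20 cells in every library, a comparison added after seeing the data. Gcnt2 had an interval below 0 in 8, 9 and 9 of these 10 clusters, where 0.507%, 0.76% and 0.558% of all genes were below 0 in at least 8. Over the 10 clusters together it was lower by 0.66, 0.56 and 0.47 on the log2 scale. Gcnt2 also stood lower in basophil/mast-like cells, at 64.0 CPM in Mll4SI and 39.0 in Mll3/4SI against 102 in control, with intervals that did not overlap.

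Angpt1 went the other way in granulocyte-monocyte-like cells of Mll3/4SI, at 90.9 against 41.5 CPM (1.11 on the log2 scale), and was the only member at or above 1 (0.237%, 1.12% and 1.33% of all genes were in the 3 comparisons). Cluster 17, with 863 Mll3/4SI cells, 1 control cell and leading genes Mpo and Cpa3, had 383 CPM in Mll3/4SI. It held 7393 of the 9697 Angpt1 UMIs of the class in that library, so most of the class value comes from this cluster. Over the 10 shared clusters, which held 91.5% of control and 26.0% of Mll3/4SI cells of the class, the ratio was 0.59, a pooled value that depends on how the cells fall among clusters. Taken 1 by 1, Angpt1 had an interval above 0 in 2 of the 10 clusters and below 0 in none, and clusters 5, 6 and 7 were level (189 against 188, 70.96 against 70.4 and 44.03 against 44.1 CPM). In Mll4SI the shared clusters gave 0.76 for Angpt1, 0.41 for Adgrl4 and 0.52 for Adgrg1, where the whole class gave 0.12, -0.09 and -0.10, so the latter 2 turned direction with the clusters compared. The intervals of Angpt1, Adgrl4 and Adgrg1 were above 0 in 5, 4 and 5 of the 10 clusters and below 0 in 0, 2 and 0. Among the shared clusters Angpt1 was highest in cluster 5, which is led by Mpo and Ctsg of early granulocyte precursors, at 188, 241, 255 and 189 CPM.

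**Figure D5:**
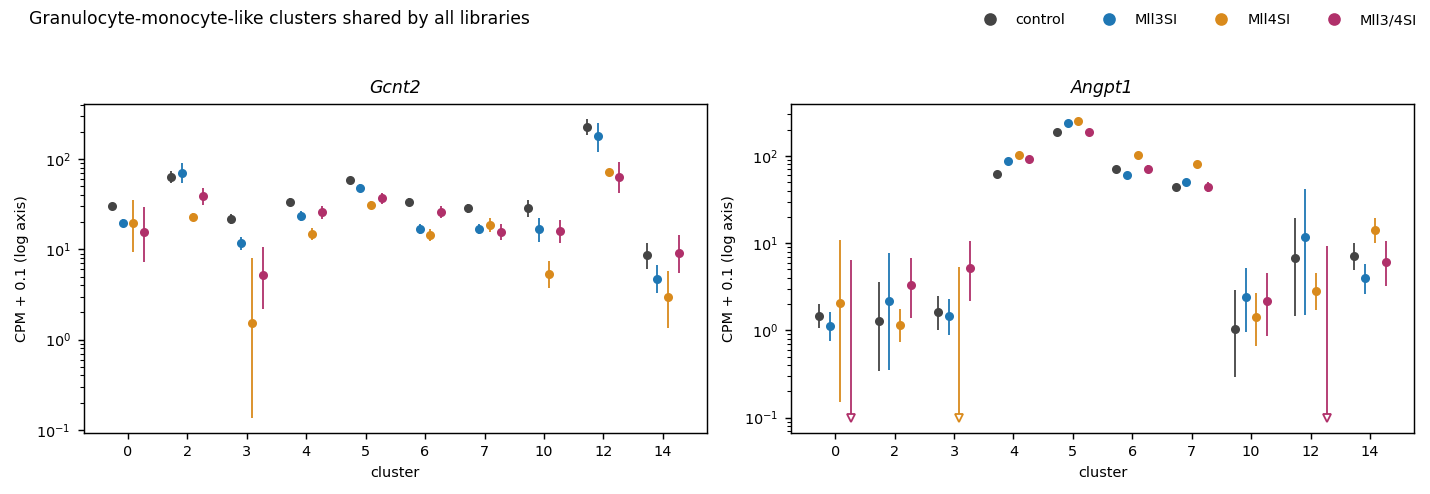
CPM plus 0.1 on a log axis of Gcnt2 and Angpt1 (panels) in the 10 granulocyte-monocyte-like clusters with at least 20 cells in every library (horizontal axis); points are libraries, bars 95% Poisson intervals and open triangles 0 UMIs. Gcnt2 is highest in control in most clusters, and Angpt1 is high in clusters 4, 5, 6 and 7.

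Other genes of the same pathways were taken from 8 lists with 68 genes, 54 of them at 1 CPM or more in HSC/MPP-like cells. At or above 1 were 0 of them for Mll3SI, 2 for Mll4SI and 1 for Mll3/4SI; at or below -1 were 1, 2 and 0. The shares of all genes are those given for HSC/MPP-like cells. The receptor of the ligand, Tek, stood at 8.11, 10.3, 12.3 and 8.97 CPM and its partner Tie1 at 8.63, 12.1, 16.1 and 14.4. RNA of both receptors and of the ligand was thus found in this class, though not in it alone. In control 94 of the 330 Tek UMIs of all kept cells lay there. Whether the same cells held receptor and ligand RNA was not tested. Dok2, an adaptor downstream of TIE2, was 24.2, 22.8, 8.08 and 19.0 CPM and thus low in Mll4SI alone (log2 ratio -1.47). Fgd2, a relative of Fgd5, was 11.6, 11.9, 3.88 and 12.9 CPM, also low in Mll4SI (-1.37).

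Among the adhesion genes, Cdh1, which encodes E-cadherin, stood at 0.95, 1.41, 8.19 and 4.81 CPM, with log2 ratios of 2.24 in Mll4SI and 1.58 in Mll3/4SI. Adgrl3, named after its values were seen, had no UMI in control and stood at 0.12, 4.76 and 0.44 CPM in the others. The related Adgrl2 was 69.2, 37.8, 113 and 67.4 CPM, low in Mll3SI and high in Mll4SI, whereas Adgrl4 itself moved by 0.10 in both. Selp and Cd9, both of platelets and stem cells, were lower in Mll3/4SI by 0.79 and 0.67. Itga9 was the gene below -1 in Mll3SI, at 1.64 against 5.18 CPM.

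The genes whose level was most like that of each member over 32 points (named classes and unnamed clusters with at least 20 cells, each library apart) were ranked among 13343 genes by Pearson's r. The points share libraries and depth, so r is a description. The 3 closest to Fgd5 were Lhcgr (0.94), Gm16070 and Nkx2-3. Angpt1 was closest to Gata2 (0.93), Myct1 and Mc5r, and Adgrl4 to Hlf (0.83), Rhobtb3 and Spns2. Adgrg1 was closest to Sox4 (0.92), Hp1bp3 and Maml3, and Pdzk1ip1 to Cavin1 (0.97), Dmwd and Itga2b. Ctnnal1 was closest to Spef1 (0.90), Prxl2a and A630052C17Rik, and Gcnt2 to Lmo2 (0.88), Etv6 and Nfe2. No 2 members had the same closest gene. Among the members themselves r was highest for Angpt1 with Pdzk1ip1 (0.86) and lowest for Ctnnal1 with Gcnt2 (0.11).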

How the data were processed

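Gene and antibody UMIs were counted per cell barcode in 4 libraries, 1 per group. The deposited values are raw counts, which the authors made with Cell Ranger 7.1.0 on mm10, per the submitters' processing notes; how strand and overlapping genes were treated is not given in the sources used here. From these counts, cells with at least 500 genes and 1000 UMIs and at most 10% mitochondrial UMIs were kept. Cells were then scored for doublets with Scrublet in scanpy 1.11.5. The highest-scoring cells were removed, at a rate set in advance of 0.8% per 1000 cells of the library. These were 409, 594, 1001 and 411 cells for control, Mll3SI, Mll4SI and Mll3/4SI. Cells of all libraries were clustered together on 2000 variable genes, 30 principal components and 15 neighbours (Leiden resolution 1, leidenalg 0.10.2), with the 8 genes and the pathway genes left out. No batch correction was applied. The 27 clusters were named from marker lists, needing at least 3 markers.

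UMIs were summed per class and library (libraries held 140546094 to 177753607 gene UMIs before filters; HSC/MPP-like cells had medians of 15336 to 22196) and scaled to CPM. Ratios are log2 of CPM + 1; genes needed a mean of 1 CPM. Intervals are 95% (exact Poisson for levels, exact conditional binomial for ratios, without the added 1 CPM, and Clopper-Pearson for shares). They cover counting error only, and no p-value was computed. The ratio and interval code was tested on simulated data. Python 3.11.15, numpy 2.4.6, scipy 1.17.1 and pandas 2.3.3 were used.

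The genes, marker lists and pathway lists were chosen with earlier results of these data known. Named genes are the 8 members, the 3 genes closest to each by Pearson's r of log2(CPM + 1), and listed pathway genes above 5 CPM in HSC/MPP-like cells of a library. Alternatives were stricter filters, removal of cells with both hashtags, other clusterings and class rules, other scalings, and each hashtag alone. For the last, cells were set against control cells of the same hashtag number, though the labels do not say that these match. The genes closest in pattern to Esam are not reported here.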

Additional observations from a re-analysis of the deposited data

Results flagged for a closer look

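Some effects pointed in opposite directions in 2 libraries or 2 cell classes. None of these differences was tested, since each group is 1 library.

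In antibody-high against antibody-low HSC/MPP-like cells, each value below for the whole class had an interval that excluded 0. With CD41, Fgd5 was 2.69 in Mll3SI and -2.20 in Mll4SI on the log2 scale, 4.89 apart, from 19 against 1 and 0 against 7 UMIs. Esam was 1.55 and -1.14 there, 2.69 apart, and Angpt1 0.58 and -0.21, 0.79 apart. With CD150, Adgrl4 was 0.31 in Mll4SI and -0.37 in Mll3SI, 0.67 apart. With CD135, Gcnt2 was 0.33 in Mll4SI and -0.69 in Mll3/4SI, 1.01 apart. With CD34, Gcnt2 was 0.34 in control and -0.63 in Mll3/4SI, 0.98 apart. With CD127, Angpt1 was 0.16 in Mll4SI and -0.37 in Mll3SI, 0.53 apart, and Adgrl4 0.41 in Mll4SI and -0.16 in control, 0.57 apart. CD127 medians were 7 to 13 UMIs in high and 1 to 4 in low cells. Within cluster 16 alone, Adgrl4 with CD150 was -0.11 (-0.26 to 0.04) in Mll4SI and -0.57 in Mll3SI. There Gcnt2 with CD135 was -0.18 (-0.40 to 0.05) in Mll4SI and -1.14 in Mll3/4SI. With CD34 it was -0.0008 in control and -0.86 in Mll3/4SI, so these signs were not opposite there. Cluster 16 made up 21.9% of CD41-high and 64.8% of CD41-low cells in Mll4SI, against 48.5% and 73.8% in Mll3SI.

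Both adhesion receptors moved in opposite directions in HSC/MPP-like and granulocyte-monocyte-like cells. In Mll4SI against control, Adgrl4 was 0.10 and -0.09 (0.19 apart) and Adgrg1 0.16 and -0.10 (0.26 apart). In Mll3/4SI, Adgrl4 was -0.10 and 0.24 (a difference of -0.34) and Adgrg1 -0.15 and 0.42 (-0.57). For Mll4SI the granulocyte-monocyte values turned to 0.41 and 0.52 within the shared clusters. For Mll3/4SI they were 0.62 and 0.28 there. Adgrl4 had an interval above 0 in 5 and below 0 in 0 of these 10 clusters, but Adgrg1 above in 1 and below in 2. Cluster 17 held 3245 of the 4706 Adgrg1 UMIs of the class. Adgrg1 was 35.3 against 33.2 CPM in Hashtag1 cells and 54.2 against 32.4 in Hashtag2 cells. The HSC/MPP-like values of Mll3/4SI turned positive under other class rules, given in the next section.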

How the results depend on the processing

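No paired analysis was possible because each group is 1 library and the labels give no replicate numbers. Of the single-gene values under the alternatives, 258 moved by less than their counting interval, 65 moved more and 13 changed sign from a main value whose interval excluded 0. Of the antibody results, 33 were classed as the same under the alternatives and 19 as moved. In HSC/MPP-like cells, Esam in Mll3SI ran from 0.63 to 1.37 and Fgd5 from 0.04 (Hashtag1 cells) to 1.96 (Hashtag2 cells), and Pdzk1ip1 in Mll4SI from 0.19 to 1.38. In the same class, values whose interval held 0 also crossed it: Fgd5 (-0.81 to 0.36) and Esam (-0.08 to 0.21) in Mll4SI, Ctnnal1 in Mll3SI (-0.58 to 0.53), and Fgd5 (-0.80 to 1.54), Angpt1 (-0.26 to 0.46), Pdzk1ip1 (-0.63 to 0.94) and Ctnnal1 (-0.11 to 1.34) in Mll3/4SI. The causes were not tested.

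The 13 sign changes were these. In Mll3/4SI, Adgrl4 became 0.090 and Adgrg1 0.28 with the class of the nearest control cells, 0.20 and 0.37 in cells with 3 or more HSC/MPP markers, Adgrl4 0.020 in Hashtag2 cells, and Adgrg1 0.11 with cluster 15 counted in. In Mll3SI, Gcnt2 became 0.012 as a mean over cells, 0.063 in Hashtag2 cells and 0.044 in cluster 16, and Adgrl4 -0.011 in cluster 16. Gcnt2 became 0.24 in Mll4SI in cluster 16. In granulocyte-monocyte-like cells of Mll4SI, Adgrl4 became 0.41 and Adgrg1 0.52 in the clusters with at least 20 cells in every library. The cluster 16, cluster 15 and shared-cluster settings were chosen after seeing the data.

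The median of HSC/MPP-like to granulocyte-monocyte-like ratios stayed positive. It moved to 2.93 (control) and 2.42 (Mll3/4SI) with Leiden resolution 2, to 3.32 (Mll3/4SI) in cells with 3 or more markers, and to 3.84 (Mll3SI) and 3.94 (Mll4SI) as a mean over cells. Median-of-ratios scaling gave 2.71, 2.99, 3.01 and 2.38, and 10 CPM added gave 1.92, 2.34, 2.20 and 1.71. The median ratio of the 8 in Mll3SI was 0.36 in Hashtag2 cells. The Mll3/4SI share of cells with 1 or more genes was 1.01 times that of control, against 0.95 for 2 or more. Among genes of at least 10 mean CPM, those at or above 1 and at or below -1 numbered 18 and 17 (Mll3SI), 64 and 51 (Mll4SI) and 33 and 31 (Mll3/4SI), from 61 and 68, 238 and 203, and 155 and 142. Depth limits Fgd5 most, with 13 to 52 UMIs per library.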

Other observations

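The CD201 antibody, looked at after the panel was known, also followed several members. CD201-high HSC/MPP-like cells were higher for Esam by 1.42 to 2.17, Gcnt2 by 0.80 to 1.03 and Angpt1 by 0.44 to 0.96 on the log2 scale, with intervals above 0 in all 4 libraries. CD201 counts were low, with medians of 5 to 12 UMIs in high and 1 or 2 in low cells. Cluster 16 made up 64.8% to 81.6% of the high and 30.5% to 37.8% of the low cells. Adgrl4 was higher in CD135-high cells of all 4 libraries (0.14 to 0.63), whereas within cluster 16 it gave -0.50 to 0.03. CD135 is FLT3, a receptor of lymphoid-primed progenitors, and its medians were 4 to 20 UMIs in high and 0 in low cells. In B-lymphoid-like cells Ctnnal1 rested on 11, 27, 12 and 11 UMIs, while Esam and Pdzk1ip1 had none there.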
